A study of Mus musculus with 12 samples.

Results

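Undifferentiated spermatogonia (A_undiff) and early differentiating spermatogonia (A_diff) of wild-type (WT) mice were compared by bulk RNA-seq in 4 libraries, 2 of each population, out of the 12 libraries of the series. The mice were untreated C57BL/6 adult males of 2 to 3 months with no engineered allele, and 100000 to 150000 sorted cells were pooled for each library. A_undiff were sorted as E-Cadherin+ CD9high KIT- cells and A_diff as E-Cadherin+ CD9medium KIT+ cells. The latter gate most likely holds A1 to A4 types, per the study's results. The other libraries of the series, from PRC1 control and conditional knockout mice, were not used here. Of the 55385 genes in the table, 15470 had at least 1 TPM (a level scaled for transcript length and for the size of the library) in at least 2 of the 4 libraries and were tested.

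Spermatogonia lie on the basement membrane of the seminiferous tubule. A_undiff include the stem cells and divide slowly, and GDNF and FGF from the somatic cells keep them in that state through ERK and PI3K signalling. Retinoic acid moves them irreversibly to A_diff, which switch on KIT, divide in quick succession as connected cysts and then enter meiosis. The comparison addresses which programs of the cell, besides these known markers, differ between both sides of that step.

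The markers followed the labels. *Kit*, the receptor for stem cell factor, had 6.38 and 6.96 TPM in A_undiff and 247 and 245 TPM in A_diff, and *Stra8*, a retinoic acid target needed for meiotic entry, had 66.2 and 53.2 TPM in A_undiff and 675 and 581 TPM in A_diff. *Gfra1*, the GDNF co-receptor, had 70.5 and 68.1 TPM in A_undiff and 3.55 and 4.06 TPM in A_diff, and *Nanos3*, a translational repressor of A_undiff, had 148 and 159 TPM in A_undiff and 7.44 and 9.19 TPM in A_diff. In each of these genes the populations lay far apart. The genes of the other sorted antigens were lower in A_diff, *Cd9* with 168 and 174 TPM in A_undiff and 72.5 and 71.5 TPM in A_diff and *Cdh1*, which encodes E-Cadherin, with 16.8 and 18.6 TPM in A_undiff and 6.99 and 6.54 TPM in A_diff. KIT, CD9 and E-Cadherin were used in the sort, so these 3 genes are a check and not a result.

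A gene was called where limma gave a Benjamini-Hochberg adjusted p under 0.05 and the difference in log2(TPM + 1) exceeded 1 in size. By that rule 11.1% of the genes tested were higher in A_diff and 9.24% were lower. The median log2 fold change of all genes tested was 0.15, and rescaling (median-of-ratios factors over the 4 libraries) brought it to 0.00 and the calls to 7.54% higher and 11.3% lower, so that 60.0% of all calls were lower in place of 45.3%. Every called gene had libraries that did not overlap between populations, as had 72.1% of all genes tested. The 54 gene lists used here hold 1595 different genes of the table, of which 1439 were tested, 178 were called higher and 176 lower. Below, the count of called members of a list is to be read against the shares of all genes, 11.1% higher and 9.24% lower, and its median log2 fold change against 0.15. Square brackets after such a count or median give its lowest and highest value when the 10 other fits are included, namely a pseudocount of 0.1, no filter, a mean of at least 5 TPM, rescaling, the replicate number as a block, plain moderation and each of the 4 libraries left out; the filters also change how many genes are tested. Values in parentheses after a gene's levels are its log2 fold change ± standard error with the limma adjusted p, and for any one gene, 2 libraries against 2, the smallest two-sided p of an exact permutation test is 0.333.

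**Figure D1:**
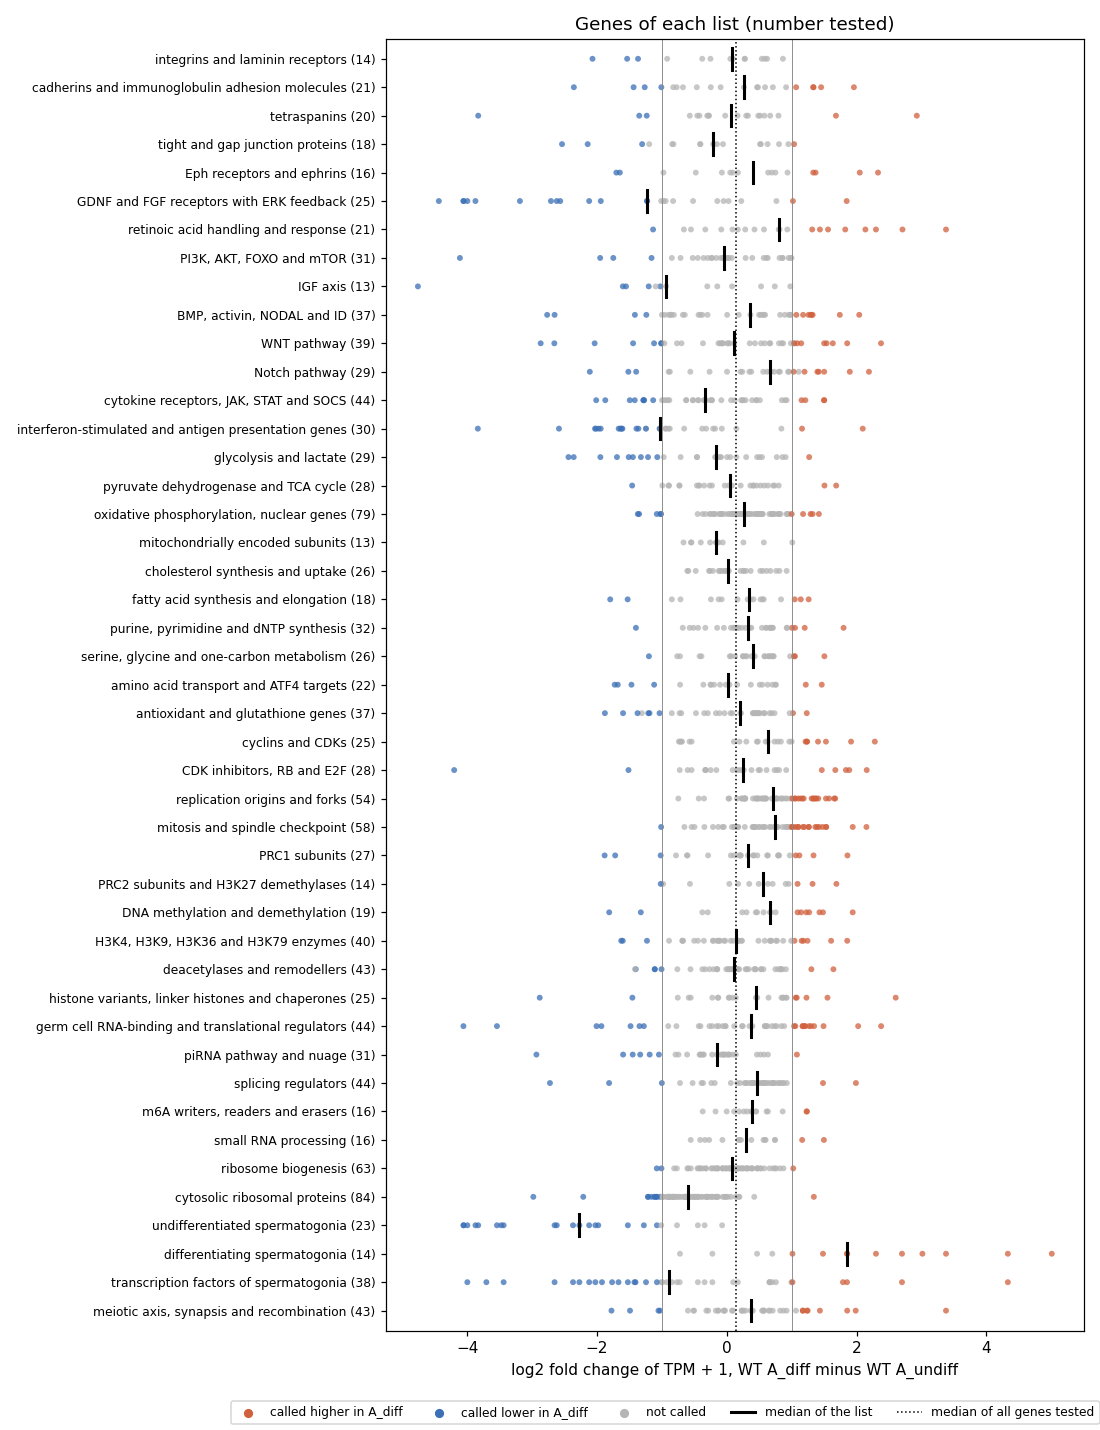
Log2 fold change of TPM + 1, A_diff minus A_undiff (x axis), of every tested gene in 45 lists (y axis, number tested in parentheses). Points are genes, coloured by call, black bars are list medians, thin lines mark the threshold of 1 either way, and the dotted line is the median of all genes tested. The lowest medians are those of the undifferentiated markers, -2.27, and of the GDNF and FGF receptors with ERK feedback, -1.23. Some genes, *Ret* and *Etv5* among them, are in both of these lists.

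Transcripts of marker genes of other testicular cells were found in all 4 libraries. *Prm1*, *Prm2*, *Tnp1* and *Tnp2*, which package DNA in spermatids, lay between 107 and 236 TPM in every library. The 13 spermatid markers held 884 and 946 TPM in A_undiff and 611 and 793 TPM in A_diff. None was called by limma, although 3 were lower at a limma adjusted p under 0.05 and fell short of the fold threshold. At an unadjusted p under 0.05 there were 5, and 1 was called lower at a pseudocount of 0.1. Of 19 Sertoli cell markers, 13 were tested and 3 [1 to 3] were lower in A_diff, *Trf* and *Rhox5* among them, the summed level was 366 and 359 TPM in A_undiff and 195 and 177 TPM in A_diff, and the defining *Sox9* and *Amh* lay at 0.47 to 1.18 and at 0 to 0.26 TPM. Most of that sum came from *Ctsl*, a lysosomal protease that many cells make, with 238 and 229.7 TPM in A_undiff and 143 and 125 TPM in A_diff and not called, and from *Trf* with 59.2 and 47.01 TPM in A_undiff and 2.82 and 4.3 TPM in A_diff. Exons of *Trf* are shared with another gene on the same strand for 63.5% of their bases, and 1 Sertoli cell marker was lower when either of the A_undiff libraries was left out. The 16 macrophage and leukocyte markers summed to 116 and 180.2 TPM in A_undiff and 71.3 and 58.2 TPM in A_diff, with *Cd74*, *H2-Aa* and *Mrc1* lower in A_diff and the defining *Adgre1* and *Ptprc* at no more than 0.67 and 0.55 TPM. These calls were lost without A_undiff replicate 2 and without A_diff replicate 2, although other markers of the list were called lower in the latter fit. Those of *H2-Aa* and *Mrc1* were also lost without A_undiff replicate 1 and with no filter, and those of *Cd74* and *H2-Aa* under the replicate block. The 11 peritubular myoid cell markers summed to 25.7 and 75.7 TPM in A_undiff and 23.8 and 31.1 TPM in A_diff. None was called by limma, but 1 was lower after rescaling and 1 at a pseudocount of 0.1. Only *Col1a1* had an unadjusted p under 0.05 (log2 fold change -0.95, limma adjusted p = 0.0313). A_undiff replicate 2 stood above the others there and for the 8 endothelial cell markers. The latter summed to 10.4 and 25.4 TPM in A_undiff and 8.53 and 7.08 TPM in A_diff. Single calls were *Tek*, lower among the endothelial markers, *Hspa2*, higher among the 13 spermatocyte markers, and *Hba-a1*, lower among the 5 erythroid markers. The call of *Tek* was lost without A_diff replicate 1 or either A_undiff library, and that of *Hba-a1* without A_undiff replicate 2. None of the 6 Leydig cell markers tested was called. Only *Fdx1* had an unadjusted p under 0.05, with higher values in A_diff (log2 fold change 0.59, limma adjusted p = 0.0225). Without A_diff replicate 2 the number of Leydig cell markers called lower was 2. Without A_diff replicate 1 it was 2 for the spermatocyte markers, 2 for the erythroid markers and 1 for the myoid markers. In bulk samples, fewer cells of a type and less RNA per cell cannot be told apart.

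**Figure D2:**
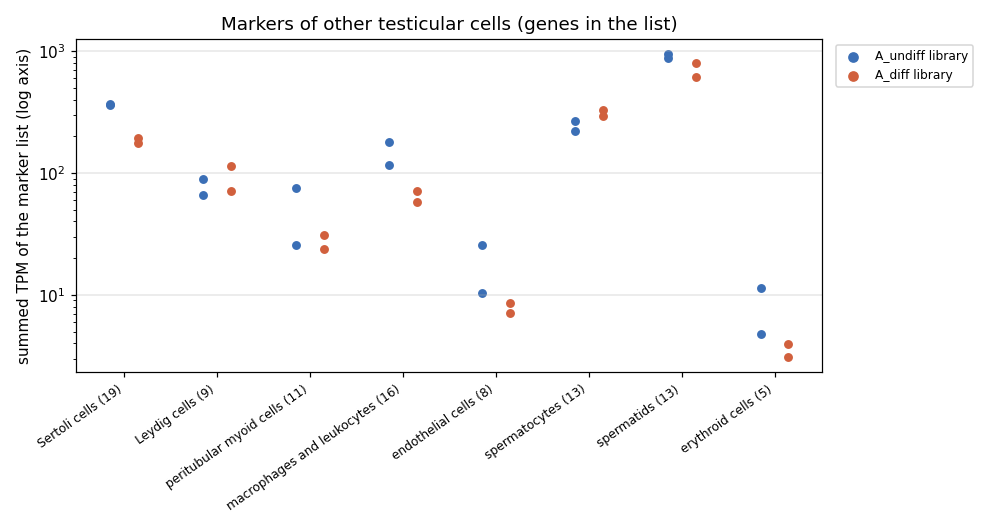
Summed TPM (log axis) of the marker genes of other testicular cell types in each library, with 2 points for A_undiff and 2 for A_diff. Sertoli, macrophage and endothelial sums lie higher in both A_undiff libraries than in A_diff, and the myoid sum stands at 75.7 TPM in A_undiff replicate 2.

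Among protein-coding genes with at least 20 TPM in one population, the 10 largest increases include *Kit*, *Stra8* and several transcription regulators. *Tbx1*, a T-box factor (chromosome 16 from 18580979 to 18590671), had 1.66 and 1.34 TPM in A_undiff and 85.04 and 129.6 TPM in A_diff (log2 fold change 5.41 with a standard error of 0.24, limma adjusted p = 0.000221). *Cited1*, a transcriptional co-activator (chromosome X from 102247381 to 102252181), had 11.8 and 14.3 TPM in A_undiff and 286 and 326 TPM in A_diff (4.45 ± 0.15, adjusted p = 0.000205), and *Dmrtb1*, a DM-domain factor of spermatogonia (chromosome 4 from 107676290 to 107684230), had 6.25 and 8.26 TPM in A_undiff and 147 and 182 TPM in A_diff (4.33 ± 0.19, adjusted p = 0.000221). All 3 genes were nearly silent to low in both A_undiff libraries and abundant in both A_diff libraries. *Runx3* rose from 1.8 and 2.41 to 31.97 and 38.3 TPM, and *Plk5*, a member of the polo-like kinase family, from 0.8 and 1.38 to 30.8 and 41.2 TPM. The neuropeptide gene *Gal* had 0.14 and 0.97 TPM in A_undiff and 27.1 and 22.9 TPM in A_diff, the proprotein convertase inhibitor *Pcsk1n* had 0.61 and 0.71 TPM in A_undiff and 20.6 and 35.6 TPM in A_diff, and *Ppp1r1b*, a phosphatase inhibitor, had 3.77 and 4.25 TPM in A_undiff and 50.5 and 53.4 TPM in A_diff.

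Among the 10 largest decreases were genes of varied function. *Igfbp6*, a secreted IGF-binding protein (chromosome 15 from 102144362 to 102149511), had 87.4 and 115 TPM in A_undiff and 4.07 and 1.76 TPM in A_diff, and *Dusp6*, the phosphatase that inactivates ERK (chromosome 10 from 99263231 to 99267489), had 56.2 and 61.9 TPM in A_undiff and 1.5 and 2.07 TPM in A_diff (-4.44 ± 0.20, adjusted p = 0.000221). *Enc1*, an actin-binding Kelch protein (chromosome 13 from 97241105 to 97253034), had 80.8 and 86.4 TPM in A_undiff and 2.87 and 3.19 TPM in A_diff (-4.39 ± 0.17, adjusted p = 0.000205), *Tcl1*, an AKT co-activator, had 58.3 and 60.9 TPM in A_undiff and 2.42 and 2.26 TPM in A_diff, and the forkhead factor *Foxf1* (chromosome 8 from 121084386 to 121088144) had 141 and 166 TPM in A_undiff and 6.5 and 9.17 TPM in A_diff (-4.14 ± 0.20, adjusted p = 0.000256). *Large2*, which extends the laminin-binding glycan of dystroglycan, had 177 and 220.4 TPM in A_undiff and 10.7 and 10.9 TPM in A_diff (-4.07 ± 0.16, adjusted p = 0.000205), while *Dag1*, dystroglycan itself, had 107 and 137 TPM in A_undiff and 119 and 141 TPM in A_diff. *Ly6g6e*, a surface protein with a lipid anchor, had 23.9 and 31.1 TPM in A_undiff and 0.19 and 1.06 TPM in A_diff. In all of these except *Dag1*, both A_diff libraries lay at a small fraction of the A_undiff level.

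On the surface, adhesion molecules changed in both directions. Of 14 integrin and laminin receptor genes tested 3 [2 to 4] were lower and none higher, *Itga9* with 13.1 and 13.3 TPM in A_undiff and 2.84 and 1.99 TPM in A_diff (-2.07 ± 0.23, adjusted p = 0.0022) and *Itgb5* with 29.6 and 33.8 TPM in A_undiff and 9.94 and 10.6 TPM in A_diff (-1.54 ± 0.17, adjusted p = 0.00213) leading (a median of 0.08 [-0.15 to 0.26] that became -0.08 after rescaling). *Itgb1*, the common beta subunit, had 78.1 and 74.1 TPM in A_undiff and 122 and 114 TPM in A_diff, and *Itga6*, its laminin-binding partner and a stem cell antigen, had 50.5 and 47.8 TPM in A_undiff and 24.99 and 26.04 TPM in A_diff; neither was called, and *Itga6* was called lower after rescaling. *Thy1*, another antigen used to enrich stem cells, fell from 6.51 and 7.54 to 0.84 and 0.33 TPM (-2.36 ± 0.28, adjusted p = 0.00258). N-cadherin *Cdh2* rose from 5.42 and 6.83 to 16.8 and 17.1 TPM (1.34 ± 0.20, adjusted p = 0.00495), the epithelial adhesion gene *Epcam* from 40.8 and 42.3 to 110.1 and 121 TPM (1.45 ± 0.13, adjusted p = 0.00135), and *Nrcam* from 1 and 1.79 to 8.82 and 7.59 TPM. Of the 21 cadherin and immunoglobulin-type genes tested, 5 [4 to 6] were higher and 4 [2 to 4] lower, with a median of 0.26 [0.08 to 0.47], and without A_undiff replicate 2 the lower ones were 2. The lower ones include *Cdh1*, which the sort used.

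Tetraspanins are membrane proteins that organise receptors into clusters. *Cd63*, a tetraspanin of late endosomes and exosomes (chromosome 10 from 128900989 to 128912822), had 22.7 and 25.01 TPM in A_undiff and 189 and 187 TPM in A_diff (2.93 ± 0.13, adjusted p = 0.000221), so its A_diff libraries lay clear above those of A_undiff, and its relative *Tspan8* had 21.96 and 16.1 TPM in A_undiff and 0.8 and 0.08 TPM in A_diff (-3.83 ± 0.33, adjusted p = 0.00123). *Tspan4* rose from 19.97 and 25.1 to 68.2 and 80.5 TPM, and *Cd81* had 67.4 and 66.2 TPM in A_undiff and 87.9 and 104 TPM in A_diff and *Cd151* 78.6 and 87.4 TPM in A_undiff and 76.5 and 86.9 TPM in A_diff, neither of them called. Of 20 tested, 2 [2 to 3] were higher and 3 [2 to 3] lower, with a median of 0.07 [-0.15 to 0.23] that became -0.06 after rescaling, and the lower ones include *Cd9*, which the sort used.

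Among junction genes, both leading calls were decreases. *F11r*, the junctional adhesion molecule JAM-A (chromosome 1 from 171437535 to 171464603), had 139.9 and 148 TPM in A_undiff and 30.1 and 33.6 TPM in A_diff (-2.14 ± 0.13, adjusted p = 0.000642), and occludin *Ocln* 17.2 and 17.6 TPM in A_undiff and 1.84 and 2.53 TPM in A_diff (-2.54 ± 0.22, adjusted p = 0.00126). *Jam3*, a relative of *F11r*, had 32.3 and 33.4 TPM in A_undiff and 51.7 and 51 TPM in A_diff and was not called. Of 18 tight and gap junction genes tested, 3 [2 to 5] were lower and 1 [0 to 1] higher, with a median of -0.21 [-0.51 to -0.06], and without A_diff replicate 2 the lower ones were 5. The higher call, of *Cldn6*, was lost whichever library was left out, after rescaling, at a pseudocount of 0.1 and with no filter. Sertoli cells also use occludin and JAM proteins at the blood-testis barrier, and the part of their markers, given above, in these falls was not tested.

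Eph receptors and ephrins, contact signals that sort cells, changed in both directions. *Ephb4* had 6.94 and 8.52 TPM in A_undiff and 38.01 and 48.01 TPM in A_diff (2.33 ± 0.20, adjusted p = 0.00123) and its family's transmembrane ligand *Efnb1* 2.11 and 3.18 TPM in A_undiff and 13.6 and 14.2 TPM in A_diff (2.05 ± 0.24, adjusted p = 0.00242), and both rose, whereas *Epha1* fell from 6.94 and 8.84 to 1.83 and 1.61 TPM and *Ephb1* from 6.09 and 6.68 to 1.15 and 1.58 TPM. *Efnb2*, the best-known ligand of *Ephb4*, had 0.6 and 0.77 TPM in A_undiff and 2.24 and 1.47 TPM in A_diff and was not called. In total 4 [2 to 5] of 16 genes tested were higher and 2 [0 to 3] lower, with a median of 0.40 [0.20 to 0.69], and 2 were higher without A_undiff replicate 1.

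GDNF and FGF signalling genes were lower in 52.0% of those tested, against 9.24% of all genes. This list is not separate from the known markers. Of its lower genes, *Ret*, *Gfra1*, *Etv5*, *Egr4* and *Bcl6b* are also in the marker list of undifferentiated cells. Of 25 genes tested (of 29 listed), 13 [10 to 15] were lower in A_diff and 2 [1 to 2] higher, with a median log2 fold change of -1.23 [-1.94 to -0.99], and 15 were lower after rescaling. The signalling receptor *Ret* (chromosome 6 from 118151745 to 118197718) had 96.7 and 124 TPM in A_undiff and 5.73 and 5.6 TPM in A_diff (-4.05 ± 0.18, adjusted p = 0.000221) next to its co-receptor *Gfra1*. *Gfra3*, the co-receptor for artemin, had 5.97 and 8.24 TPM in A_undiff and 11.6 and 13.8 TPM in A_diff and was not called. Of the FGF receptors, *Fgfr3* (chromosome 5 from 33721674 to 33737068) rose from 3.05 and 3.55 to 11.9 and 17.5 TPM (1.85 ± 0.25, adjusted p = 0.00373).

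Below the receptors, the ETS factors *Etv5* (57.3 and 58.7 TPM in A_undiff and 2.62 and 2.77 TPM in A_diff) and *Etv4* (53.3 and 58.2 TPM in A_undiff and 7.55 and 9.74 TPM in A_diff), which GDNF and FGF induce, both fell. The immediate-early EGR factors fell together. *Egr1* had 77.9 and 88.1 TPM in A_undiff and 3.17 and 5.08 TPM in A_diff (-4.06 ± 0.23, adjusted p = 0.000482), *Egr2* 27.2 and 27.7 TPM in A_undiff and 2.19 and 2.06 TPM in A_diff and *Egr4* 165 and 249 TPM in A_undiff and 22.6 and 45.5 TPM in A_diff. The repressor *Bcl6b*, another GDNF target, went from 25.9 and 29.5 to 5.64 and 5.55 TPM. Feedback inhibitors followed the same direction, *Dusp5* with 31.04 and 33.95 TPM in A_undiff and 7.8 and 7.63 TPM in A_diff and *Spry4* with 9.46 and 7.27 TPM in A_undiff and 0.28 and 0.58 TPM in A_diff, next to *Dusp6* above. Their relatives *Spry1* (6.73 and 9 TPM in A_undiff and 3.92 and 3.26 TPM in A_diff), *Spry2* (8.66 and 6.24 TPM in A_undiff and 2.59 and 4.07 TPM in A_diff) and *Spred2* (25.9 and 26.3 TPM in A_undiff and 14.8 and 13.8 TPM in A_diff) had lower values in both A_diff libraries but were not called. *Spry1* and *Spry2* were called lower after rescaling and at a pseudocount of 0.1, and so was *Spry1* without A_diff replicate 1 and *Spry2* without A_diff replicate 2.

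**Figure D3:**
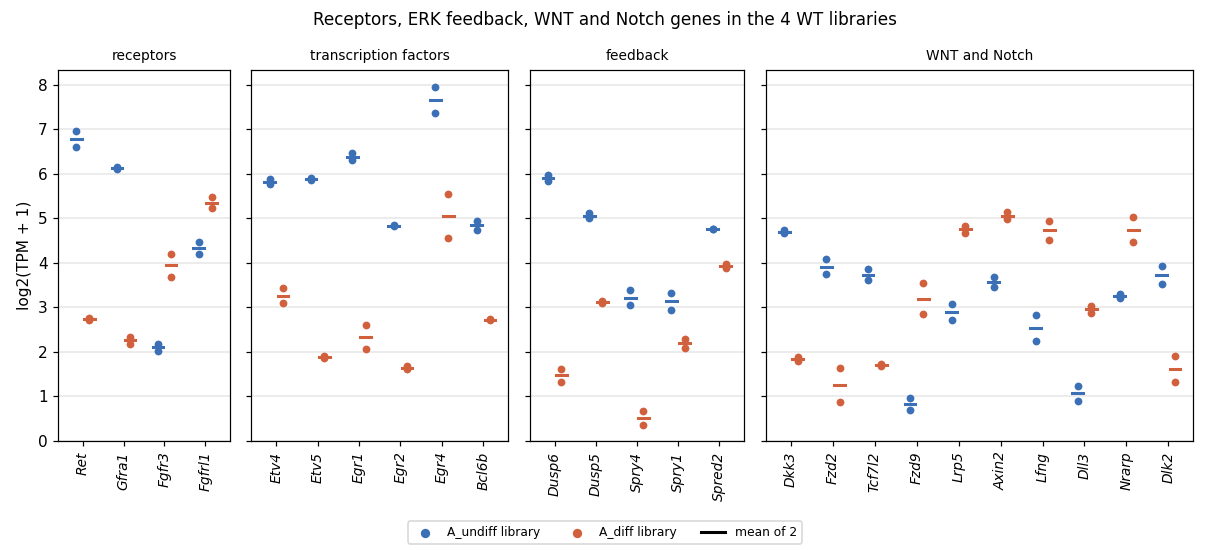
Log2(TPM + 1) (y axis) of receptors, ERK-responsive transcription factors, feedback genes and WNT and Notch genes in each library, with 2 points for A_undiff, 2 for A_diff and a bar for the mean of 2. *Ret*, *Etv5*, *Egr1* and *Dusp6* lie apart by about 4 units, while *Fgfr3*, *Lrp5*, *Fzd9* and *Lfng* lie higher in A_diff.

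Some genes of retinoic acid handling rose besides *Stra8* and *Crabp1*. The secreted retinol carrier *Rbp4* had 18.5 and 19.8 TPM in A_undiff and 60.9 and 81.5 TPM in A_diff (1.83 ± 0.18, adjusted p = 0.00166). *Cyp26b1*, an enzyme that degrades retinoic acid, had 1.22 and 2.42 TPM in A_undiff and 9.73 and 12.7 TPM in A_diff (2.14 ± 0.30, adjusted p = 0.00392). In both genes the A_diff libraries lay well above those of A_undiff. Of the receptors, *Rarg* had 61.4 and 71.8 TPM in A_undiff and 39.4 and 43.99 TPM in A_diff, *Rxra* 63.3 and 80.5 TPM in A_undiff and 51.4 and 62.2 TPM in A_diff and *Rxrb* 38.4 and 52.02 TPM in A_undiff and 77.4 and 96.1 TPM in A_diff, none of them called. The receptor *Rarb*, at a low level, rose from 0.65 and 0.05 to 3.42 and 2.41 TPM, a call that was lost without A_undiff replicate 2 (1.23). Of 21 genes tested 8 [6 to 10] were higher and 1 [0 to 1] lower, with a median of 0.80 [0.31 to 0.95], and none was lower when either of the A_undiff libraries was left out. The median was 0.52 without A_undiff replicate 2.

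In the PI3K, AKT, FOXO and mTOR list 4 [3 to 5] of 31 genes were lower, 12.9% against 9.24% of all, and none was higher (a median of -0.05 [-0.23 to 0.11]). Inhibitors of mTOR did not move together, with *Ddit4* and *Sesn1* lower and *Tsc2* not called. *Ddit4*, which restrains mTORC1 under stress (chromosome 10 from 59949669 to 59951834), had 102 and 128 TPM in A_undiff and 5.87 and 5.47 TPM in A_diff (-4.11 ± 0.18, adjusted p = 0.000221), and *Sesn1*, with a like role, 20.97 and 18.4 TPM in A_undiff and 4.87 and 5.42 TPM in A_diff (-1.75 ± 0.19, adjusted p = 0.00213). The catalytic subunit *Pik3cd* fell from 35.5 and 45.5 to 9.2 and 10.2 TPM. *Mtor* had 46.3 and 57.7 TPM in A_undiff and 94.97 and 114 TPM in A_diff, *Akt1* 83.1 and 109 TPM in A_undiff and 169 and 202 TPM in A_diff and *Tsc2* 61.3 and 66.1 TPM in A_undiff and 111 and 145 TPM in A_diff, with log2 fold changes of 1.00, 0.95 and 0.98 that did not pass 1. Without A_undiff replicate 2, and likewise without A_diff replicate 1, 3 genes of the list were called higher in place of none. *Foxo1*, which holds A_undiff in their state, had 51.8 and 57.8 TPM in A_undiff and 28.5 and 31.6 TPM in A_diff and *Foxo3* 53.9 and 70.4 TPM in A_undiff and 39.3 and 58.3 TPM in A_diff; neither was called, and *Foxo1* was called lower after rescaling.

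On the IGF axis 5 [2 to 6] of 13 genes tested were lower and none [0 to 1] higher, with a median of -0.93 [-1.19 to -0.15]. Leaving out A_undiff replicate 1 or A_undiff replicate 2 left 3 lower, and without the latter the median was -0.20. The receptor *Igf1r* (chromosome 7 from 67952827 to 68233668) fell from 83.3 and 91.6 to 37.3 and 37.5 TPM (-1.20 ± 0.13, adjusted p = 0.00215). *Igfbp2*, the most abundant IGF-binding protein here, had 158 and 177 TPM in A_undiff and 252 and 311 TPM in A_diff and was not called, in contrast to *Igfbp6*.

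BMP, activin and NODAL genes changed in both directions. The activin antagonist follistatin, *Fst*, had 29.4 and 27.1 TPM in A_undiff and 2.62 and 4.08 TPM in A_diff (-2.77 ± 0.23, adjusted p = 0.0012). Among the ID repressors, *Id1* had 0.78 and 2.8 TPM in A_undiff and 8.91 and 10.6 TPM in A_diff (2.04 ± 0.39, adjusted p = 0.00966) and *Id2* 0.62 and 1.51 TPM in A_undiff and 5.88 and 5.61 TPM in A_diff, both higher in A_diff, *Id3* had 6.08 and 8.14 TPM in A_undiff and 3.08 and 3.58 TPM in A_diff and was called (lower) after rescaling and at a pseudocount of 0.1 but not otherwise, and *Id4* fell from 12.2 and 9.95 to 0.76 and 1.07 TPM. *Id2* was not called without A_undiff replicate 1, where its log2 fold change was 1.43. The transducer *Smad1* rose from 11.5 and 11.3 to 30.1 and 29.4 TPM (1.31 ± 0.16, adjusted p = 0.00267), while *Smad2* (143 and 135 TPM in A_undiff and 158 and 159 TPM in A_diff) and *Smad4* (31.5 and 35.3 TPM in A_undiff and 60.8 and 65.1 TPM in A_diff) were not called. Of 37 genes tested 8 [3 to 10] were higher and 4 [2 to 6] lower, with a median of 0.36 [0.04 to 0.41]. Without A_undiff replicate 1 the higher ones were 3, and without A_undiff replicate 2 they were 5, with 2 lower.

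WNT genes changed in both directions as well. The secreted *Dkk3* (chromosome 7 from 112116017 to 112159057) had 25.6 and 24.4 TPM in A_undiff and 2.45 and 2.68 TPM in A_diff (-2.87 ± 0.20, adjusted p = 0.000817), the receptor *Fzd2* 12.4 and 15.98 TPM in A_undiff and 0.84 and 2.11 TPM in A_diff (-2.66 ± 0.32, adjusted p = 0.00258), and the nuclear effector *Tcf7l2* 11.2 and 13.5 TPM in A_undiff and 2.19 and 2.31 TPM in A_diff (-2.04 ± 0.22, adjusted p = 0.00208), and all 3 fell. In the other direction, *Fzd9* had 0.94 and 0.61 TPM in A_undiff and 6.22 and 10.7 TPM in A_diff (2.38 ± 0.32, adjusted p = 0.00348), the co-receptor *Lrp5* 5.58 and 7.49 TPM in A_undiff and 24.6 and 27.6 TPM in A_diff (1.86 ± 0.21, adjusted p = 0.00212), and *Axin2*, a common WNT target and inhibitor, 9.96 and 11.8 TPM in A_undiff and 30.9 and 34.2 TPM in A_diff (1.5 ± 0.18, adjusted p = 0.00243). *Ctnnb1*, beta-catenin, had 246 and 259.9 TPM in A_undiff and 268 and 281 TPM in A_diff and *Tcf7* 156 and 167 TPM in A_undiff and 206 and 230.3 TPM in A_diff, neither called. Of 39 genes tested 8 [5 to 10] were higher and 7 [3 to 8] lower, with a median of 0.12 [-0.02 to 0.48] that became -0.02 after rescaling. Without A_undiff replicate 2 the median was 0.48 and without A_diff replicate 1 it was 0.43. After rescaling 5 were higher, without A_undiff replicate 1 the counts were 5 and 4, and without A_undiff replicate 2 the lower ones were 3.

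Notch genes were called in both directions. The glycosyltransferase *Lfng*, which tunes Notch receptors (chromosome 5 from 140607320 to 140615545), had 3.72 and 6.15 TPM in A_undiff and 21.8 and 29.9 TPM in A_diff (2.19 ± 0.28, adjusted p = 0.00285), the ligand *Dll3* 0.87 and 1.34 TPM in A_undiff and 7.23 and 6.36 TPM in A_diff (1.9 ± 0.26, adjusted p = 0.00373), and *Nrarp*, a Notch target and inhibitor, 8.19 and 8.83 TPM in A_undiff and 21.2 and 31.6 TPM in A_diff. The exons of *Nrarp* overlap an opposite-strand gene for 79.4% of their bases. *Dlk2*, a non-canonical ligand, fell from 10.5 and 14.3 to 2.78 and 1.49 TPM (-2.11 ± 0.30, adjusted p = 0.00403), and its paralog *Dlk1* had 58.7 and 61.1 TPM in A_undiff and 87.1 and 127 TPM in A_diff. *Notch1* (2.74 and 3.88 TPM in A_undiff and 7.37 and 7.22 TPM in A_diff), *Rbpj* (26.6 and 38.1 TPM in A_undiff and 61.8 and 46.1 TPM in A_diff) and the target *Hes1* (52.3 and 41.7 TPM in A_undiff and 24.2 and 40.4 TPM in A_diff) were not called. Of 29 genes tested 7 [4 to 11] were higher and 3 [2 to 4] lower, with a median of 0.67 [0.48 to 0.79]. The counts were 5 and 4 after rescaling and without A_diff replicate 2, and the higher ones were 4 without A_undiff replicate 1 and 11 without A_diff replicate 1.

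Cytokine pathway genes were called in both directions. *Socs3*, a feedback inhibitor of STAT3, had 12.02 and 12.8 TPM in A_undiff and 1.75 and 3.02 TPM in A_diff (-2.01 ± 0.26, adjusted p = 0.00325), *Stat3* 48.6 and 54.5 TPM in A_undiff and 22.1 and 19.2 TPM in A_diff (-1.28 ± 0.16, adjusted p = 0.00272) and the interferon gamma receptor *Ifngr1* 19.9 and 22.2 TPM in A_undiff and 5.71 and 8.08 TPM in A_diff (-1.49 ± 0.22, adjusted p = 0.00463). *Socs6* rose from 15.7 and 14.4 to 33.6 and 38.6 TPM, and *Jak1* had 106 and 114 TPM in A_undiff and 86.9 and 88.9 TPM in A_diff, not called. Of 44 cytokine pathway genes tested 8 [3 to 13] were lower and 4 [2 to 5] higher, with a median of -0.33 [-0.46 to -0.26]; 13 were lower after rescaling, 4 without A_undiff replicate 1 (with 2 higher) and 3 without A_undiff replicate 2 (with 3 higher).

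Of 30 interferon-stimulated and antigen presentation genes tested, 14 [10 to 16] were lower and 2 [1 to 2] higher, that is 46.7% lower against 9.24% of all, with a median of -1.03 [-1.65 to -0.88]. *Ifitm1* (chromosome 7 from 140967221 to 140969825), a membrane protein of early germ cells and of the antiviral response, had 31.5 and 36.3 TPM in A_undiff and 0.58 and 2.76 TPM in A_diff (-3.84 ± 0.41, adjusted p = 0.00189). *Oasl2* had 113 and 112 TPM in A_undiff and 16.8 and 19.08 TPM in A_diff (-2.59 ± 0.14, adjusted p = 0.000479), and the transcription factor *Irf1* 136 and 153 TPM in A_undiff and 43.2 and 48.5 TPM in A_diff (-1.64 ± 0.14, adjusted p = 0.00123). Antigen presentation did not move as one. The light chain *B2m* (chromosome 2 from 122147686 to 122153083) had 53.2 and 55.96 TPM in A_undiff and 13.3 and 11.9 TPM in A_diff (-2.03 ± 0.16, adjusted p = 0.000998), the peptide-loading chaperone *Tapbp* 126 and 140.5 TPM in A_undiff and 30.5 and 33.9 TPM in A_diff (-2.02 ± 0.14, adjusted p = 0.000866) and the immunoproteasome subunit *Psmb10* 308 and 344 TPM in A_undiff and 98.03 and 106 TPM in A_diff (-1.67 ± 0.12, adjusted p = 0.000935), and all fell, while the class I heavy chain *H2-K1* (chromosome 17 from 33996017 to 34000347) rose from 15.9 and 18.8 to 75.4 and 78.96 TPM (2.10 ± 0.15, adjusted p = 0.000922). The macrophage markers *Cd74* and *H2-Aa* were lower in A_diff as well, at 60.5 and 104 against 36.3 and 24.3 TPM for *Cd74*. Of the 11 macrophage and leukocyte markers tested, 8 had a negative and 3 a positive fold change. Their sums are given above, and the part of these markers in the falls was not tested.

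The interferon-stimulated response element was searched in promoters as GAAA, any 2 bases and GAAA again, on both strands, in 250 bases before to 50 after each start (RefSeq, GRCm38.p6). It was found in 8 of the 29 promoters of the 24 list members in the sequence table (27.6%) and in 3.44% of all 32851 promoters there. Among promoters of the genes tested the share was 2.67%. The list was drawn up as interferon-stimulated genes, so a higher share in it is no result about the falls. A pair of called members with it, *B2m* and *Ifitm2*, a neighbour and paralog of *Ifitm1*, is shown with the match in capitals. Called and other members were not compared, and a part of the element in the falls was not tested. *Ifitm2* had 8.2 and 18.3 TPM in A_undiff and 2.23 and 2.56 TPM in A_diff (-1.98 ± 0.37, adjusted p = 0.00936). The windows are chr2:122147437-122147736 on the plus strand for *B2m* and chr7:140955912-140956211 on the minus strand for *Ifitm2*, read 5′ to 3′ along the gene's strand.
B2m: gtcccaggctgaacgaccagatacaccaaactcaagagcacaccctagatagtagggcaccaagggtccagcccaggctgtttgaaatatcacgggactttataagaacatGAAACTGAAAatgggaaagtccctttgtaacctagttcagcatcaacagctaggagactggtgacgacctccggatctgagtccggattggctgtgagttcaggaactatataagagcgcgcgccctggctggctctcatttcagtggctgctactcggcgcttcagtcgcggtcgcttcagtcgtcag
Ifitm2: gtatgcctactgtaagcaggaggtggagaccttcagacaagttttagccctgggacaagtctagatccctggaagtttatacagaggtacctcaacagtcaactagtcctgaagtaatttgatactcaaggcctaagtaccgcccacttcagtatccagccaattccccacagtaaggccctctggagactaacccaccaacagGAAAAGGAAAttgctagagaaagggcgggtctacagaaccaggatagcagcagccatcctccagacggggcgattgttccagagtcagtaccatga
A match is a description of the letters and not of a bound site.

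In metabolism, 9 of 29 glycolysis and lactate genes tested were lower, among them genes of glucose uptake and of pyruvate use. The glucose transporters *Slc2a1* (chromosome 4 from 119108711 to 119137983) and *Slc2a3* both fell, *Slc2a1* with 61.4 and 75.5 TPM in A_undiff and 11.3 and 13.8 TPM in A_diff (-2.36 ± 0.18, adjusted p = 0.00101) and *Slc2a3* with 24.9 and 28.9 TPM in A_undiff and 6.86 and 8.45 TPM in A_diff (-1.69 ± 0.19, adjusted p = 0.00227). *Ldha*, the lactate dehydrogenase subunit that favours lactate (chromosome 7 from 46841475 to 46855627), had 64.5 and 70.3 TPM in A_undiff and 16.9 and 16.6 TPM in A_diff (-1.95 ± 0.15, adjusted p = 0.000938), and *Pdk1*, a kinase that inhibits pyruvate dehydrogenase (chromosome 2 from 71873224 to 71903858), 118 and 102 TPM in A_undiff and 23.4 and 16.1 TPM in A_diff (-2.44 ± 0.21, adjusted p = 0.00122). Abundant enzymes were lower too, pyruvate kinase *Pkm* with 563 and 638 TPM in A_undiff and 209.8 and 229 TPM in A_diff (-1.45 ± 0.12, adjusted p = 0.00123) and enolase *Eno1* with 624 and 725 TPM in A_undiff and 271 and 309.6 TPM in A_diff (-1.21 ± 0.13, adjusted p = 0.00204). In every one of these 6 genes the A_diff libraries lay below the A_undiff libraries.

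Other steps were not called or went the other way. *Gapdh* had 1236 and 1392 TPM in A_undiff and 1366 and 1548 TPM in A_diff, *Pgam1* 346 and 358 TPM in A_undiff and 432 and 435 TPM in A_diff and *Gpi1* 918 and 1042 TPM in A_undiff and 718 and 706 TPM in A_diff, none called. Hexokinase 2, *Hk2* (chromosome 6 from 82725025 to 82774454), rose from 15.1 and 15.98 to 38.2 and 39.6 TPM (1.27 ± 0.15, adjusted p = 0.00259), while *Hk1* had 77.8 and 96.8 TPM in A_undiff and 39.3 and 48.7 TPM in A_diff and was called lower after rescaling and without A_undiff replicate 1 or A_diff replicate 2. The kinases *Pdk2* (7.23 and 9.51 TPM in A_undiff and 12.9 and 17.1 TPM in A_diff) and *Pdk3* (90.6 and 82.9 TPM in A_undiff and 131 and 123 TPM in A_diff) and the lactate transporter *Slc16a1* (26.99 and 27.2 TPM in A_undiff and 51.5 and 51.9 TPM in A_diff) were not called. Of 29 genes tested 9 [8 to 10] were lower and 1 [1 to 2] higher (31.0% lower against 9.24% of all), with a median of -0.17 [-0.34 to -0.09], and the other 19 were not called.

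**Figure D4:**
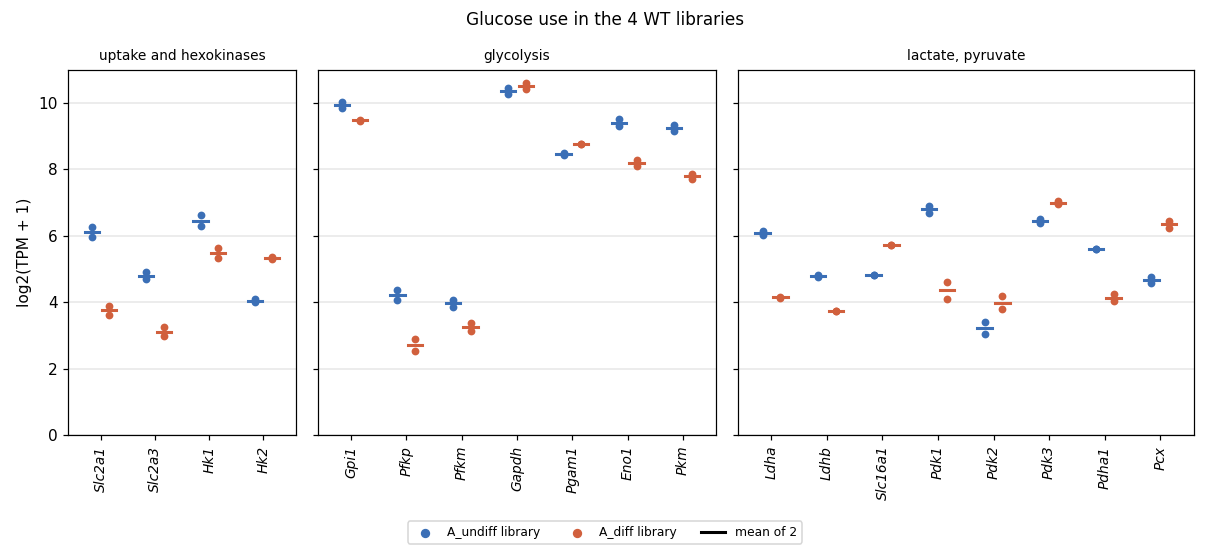
Log2(TPM + 1) (y axis) of genes of glucose uptake, glycolysis and pyruvate and lactate use in each library, with 2 points for A_undiff, 2 for A_diff and a bar for the mean of 2. *Slc2a1*, *Ldha* and *Pdk1* lie about 2 units lower in A_diff, *Hk2* and *Pcx* lie higher, and *Gapdh* overlaps.

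Where pyruvate enters the mitochondrion, pyruvate carboxylase *Pcx* (chromosome 19 from 4510472 to 4621752), which refills the TCA cycle, rose from 22.7 and 25.8 to 73.97 and 86.5 TPM (1.69 ± 0.16, adjusted p = 0.0014). *Pdha1*, the X-linked subunit of pyruvate dehydrogenase, fell from 47.5 and 46.99 to 17.9 and 15.3 TPM (-1.46 ± 0.16, adjusted p = 0.002), while its partner *Pdhb* had 109 and 97.8 TPM in A_undiff and 164 and 157 TPM in A_diff. The cycle enzyme *Cs* (189.9 and 209 TPM in A_undiff and 254 and 259 TPM in A_diff) was not called. Of 28 genes tested 2 [1 to 2] were higher and 1 [1 to 4] lower, with a median of 0.06 [-0.12 to 0.15] that became -0.12 after rescaling, and 4 were lower after rescaling.

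Respiratory chain genes were called in near equal shares either way, while small rises outnumbered small falls. Among the nuclear ones 60 had a positive and 19 a negative fold change, or 49 and 30 after rescaling. At a limma adjusted p under 0.05 and any fold, 26 were higher and 6 lower. Of 79 nuclear genes tested 5 [4 to 7] were higher and 5 [2 to 5] lower, 6.33% each beside 11.1% and 9.24% of all genes, with a median of 0.26 [0.09 to 0.37], and 2 were lower without A_undiff replicate 2. Among subunits and assembly factors of complex IV, *Cox7a1* rose from 13.9 and 13.5 to 35.7 and 41.3 TPM and *Cox7a2l* fell from 425 and 398 to 195 and 193 TPM, and *Cox4i1* had 1291 and 1429 TPM in A_undiff and 1477 and 1536 TPM in A_diff. None of the 13 mitochondrially encoded subunits was called by limma (1 was higher under the replicate block and without A_diff replicate 1, and 1 lower without A_diff replicate 2). At an unadjusted p under 0.05 there were 3, and 2 were lower at a limma adjusted p under 0.05, short of the fold threshold. Together the 13 subunits held 5.95 and 4.58% of the TPM in A_undiff and 4.91 and 4.21% in A_diff.

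Among fatty acid, nucleotide and one-carbon genes, few members were called, and after rescaling only 1 of each list was higher. Of fatty acid genes 16.7% were higher and 11.1% lower, of nucleotide genes 12.5% and 3.1%, and of one-carbon genes 11.5% and 3.8%. The shares of all genes were 11.1% and 9.24%, so the nucleotide and one-carbon shares called higher lay near that of all genes. None of 26 cholesterol genes tested was called by limma (10 had an unadjusted p under 0.05), with a median of 0.02 [-0.15 to 0.14] that became -0.15 after rescaling. At a limma adjusted p under 0.05, short of the fold threshold, 4 were higher and 2 lower. The largest log2 fold change was that of *Lss*, 0.92 (limma adjusted p = 0.00392). In fatty acid synthesis the elongase *Elovl6* fell from 14.9 and 11.8 to 3.34 and 2.91 TPM (-1.80 ± 0.23, adjusted p = 0.00289) and the desaturase *Scd3* from 21.5 and 28.2 to 9.39 and 6.6 TPM, while fatty acid synthase *Fasn* had 139.97 and 181 TPM in A_undiff and 317 and 389.8 TPM in A_diff, called higher on the TPM as deposited and not after rescaling (0.97), without A_undiff replicate 1 (0.96) or without A_diff replicate 2 (0.99). Of 18 fatty acid genes 3 [0 to 3] were higher and 2 lower, with a median of 0.34 [0.17 to 0.37], and the higher ones were 1 after rescaling and none without A_undiff replicate 1. Ribonucleotide reductase, which makes the building blocks of DNA, differed by subunit, *Rrm2*, its S-phase subunit (chromosome 12 from 24708241 to 24714146), with 11.9 and 14.5 TPM in A_undiff and 51.5 and 44.95 TPM in A_diff (1.80 ± 0.18, adjusted p = 0.00156) and *Rrm1* with 141 and 144 TPM in A_undiff and 273 and 272 TPM in A_diff, not called. *Dctd*, which deaminates dCMP, fell from 116 and 111 to 42.6 and 42.3 TPM (-1.40 ± 0.13, adjusted p = 0.00134), and *Mtr*, methionine synthase, from 272 and 291 to 126 and 118 TPM (-1.20 ± 0.12, adjusted p = 0.00157). Of 32 nucleotide genes 4 [1 to 4] were higher and 1 lower, with a median of 0.32 [0.15 to 0.39], the higher ones being 1 after rescaling and 2 without A_undiff replicate 1. Of 26 one-carbon genes 3 [1 to 4] were higher and 1 lower, with a median of 0.41 [0.24 to 0.58], and the higher ones were 1 after rescaling and 1 without A_undiff replicate 2.

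Of the amino acid transport and ATF4 target genes 18.2% were lower and 9.09% higher. Among antioxidant genes 16.2% were lower and 5.41% higher, beside 9.24% and 11.1% of all genes. The exchanger *Slc7a8* rose from 6.38 and 6.31 to 18.1 and 20.5 TPM (1.46 ± 0.19, adjusted p = 0.00298), *Slc38a1* fell from 6.27 and 5.89 to 1.19 and 1.23 TPM, and the abundant pair *Slc3a2* (284 and 282 TPM in A_undiff and 234 and 244 TPM in A_diff) and *Slc7a5* (264 and 313 TPM in A_undiff and 230.2 and 274 TPM in A_diff) was not called. The ATF4 targets *Trib3* (24.1 and 25.9 TPM in A_undiff and 6.72 and 6.99 TPM in A_diff) and *Cebpg* (36.1 and 43.1 TPM in A_undiff and 13.2 and 14.1 TPM in A_diff) fell, whereas *Asns*, another ATF4 target, had 31.4 and 32.2 TPM in A_undiff and 47.3 and 44.1 TPM in A_diff. Of 22 amino acid transport and ATF4 target genes 2 [1 to 2] were higher and 4 [3 to 4] lower, with a median of 0.01 [-0.15 to 0.10] that became -0.15 after rescaling, and 1 was higher when A_undiff replicate 1 or A_undiff replicate 2 was left out. *Gpx4*, the glutathione peroxidase that protects membranes and later structures the sperm midpiece (chromosome 10 from 80047166 to 80056439), had 239 and 268 TPM in A_undiff and 538 and 659.7 TPM in A_diff (1.23 ± 0.14, adjusted p = 0.00232) and rose, and glutathione transferase *Gstp1* fell from 96.5 and 118 to 30 and 26.8 TPM (-1.88 ± 0.16, adjusted p = 0.00123). Of 37 antioxidant genes tested 6 [2 to 7] were lower and 2 [1 to 3] higher, with a median of 0.21 [0.03 to 0.40], and without A_undiff replicate 2 or without A_diff replicate 1 the lower ones were 2.

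Of 28 genes of CDK inhibitors, retinoblastoma proteins and E2F factors 5 [3 to 6] were higher and 2 lower, with a median of 0.25 [0.10 to 0.36], and 3 were higher among genes with a mean of at least 5 TPM. Both lower genes encode CDK inhibitors. *Cdkn1b*, the CDK inhibitor p27 (chromosome 6 from 134920401 to 134925513), had 31.4 and 31.6 TPM in A_undiff and 0.36 and 1.3 TPM in A_diff (-4.20 ± 0.30, adjusted p = 0.000866), and *Cdkn1c*, p57, whose exons overlap an opposite-strand gene for 30.7% of their bases, 57.5 and 56.2 TPM in A_undiff and 17.8 and 20.8 TPM in A_diff (-1.51 ± 0.15, adjusted p = 0.00172). Both lost most of their level. Another inhibitor, *Cdkn2c*, p18, rose from 1.41 and 1.33 to 6.7 and 6.41 TPM (1.67 ± 0.24, adjusted p = 0.00417). E2F factors of low level in A_undiff rose, *E2f2* from 1.21 and 1.36 to 8.03 and 6.36, *E2f7* from 5.37 and 5.44 to 20 and 25.7 and *E2f8* from 3.49 and 2.46 to 17.7 and 15.5 TPM, and *E2f1*, already at 48.6 and 58.7 TPM in A_undiff, was not called at 83.8 and 106 TPM in A_diff.

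Of the kinases, *Cdk2*, the partner of cyclins E and A (chromosome 10 from 128697939 to 128705031), had 51.4 and 47.2 TPM in A_undiff and 152 and 136 TPM in A_diff (1.53 ± 0.13, adjusted p = 0.00126) and its activating phosphatase *Cdc25a* 32.3 and 29.9 TPM in A_undiff and 80.5 and 87.4 TPM in A_diff (1.41 ± 0.14, adjusted p = 0.00158), and both rose. *Cdk1* had 82.6 and 71.99 TPM in A_undiff and 84.5 and 82.2 TPM in A_diff and *Cdk4* 514 and 595 TPM in A_undiff and 308 and 380.4 TPM in A_diff, neither called. Of the D cyclins *Ccnd1* rose, and *Ccnd2* (103 and 115 TPM in A_undiff and 53.6 and 80.4 TPM in A_diff) and *Ccnd3* (173 and 157 TPM in A_undiff and 90.7 and 107 TPM in A_diff) had lower values in both A_diff libraries without being called, although *Ccnd2* was called without A_diff replicate 2. Of 25 cyclins and CDKs 7 [5 to 8] were higher (28.0%) and none [0 to 1] lower, with a median of 0.63 [0.47 to 0.74]. *Foxm1*, a factor that drives mitotic genes, had 35.4 and 38.1 TPM in A_undiff and 105 and 101 TPM in A_diff (1.46 ± 0.13, adjusted p = 0.00134).

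DNA replication and mitosis genes were higher far more often than lower. Of 54 replication genes tested 17 [11 to 18] were higher and none lower (31.5% higher against 11.1% of all), with a median of 0.72 [0.55 to 0.75], and after rescaling 11 were higher and none lower. Only 3 had a negative fold change. Genes of origin licensing were among the higher ones. *Orc1* had 29.3 and 24.6 TPM in A_undiff and 77.8 and 80.8 TPM in A_diff (1.53 ± 0.15, adjusted p = 0.00158), *Cdc6* 16.1 and 14.5 TPM in A_undiff and 53.2 and 47.5 TPM in A_diff (1.66 ± 0.16, adjusted p = 0.0015), and geminin, *Gmnn*, which blocks relicensing, 87.7 and 80.8 TPM in A_undiff and 282 and 227 TPM in A_diff (1.58 ± 0.15, adjusted p = 0.0014). *Cdt1*, the target of geminin, had 77.3 and 97.9 TPM in A_undiff and 128 and 174 TPM in A_diff and was not called. In the MCM helicase, *Mcm2* (chromosome 6 from 88883474 to 88898780) had 129 and 159.6 TPM in A_undiff and 357 and 412 TPM in A_diff (1.41 ± 0.15, adjusted p = 0.00191), *Mcm4* was called with 66.4 and 65.7 TPM in A_undiff and 144 and 149 TPM in A_diff but not after rescaling, and *Mcm3*, *Mcm5*, *Mcm6* and *Mcm7* had log2 fold changes of 0.86, 0.91, 0.85 and 0.61, below the threshold. *Pold2*, a subunit of polymerase delta, rose from 43.3 and 44.6 to 122 and 166 TPM (1.67 ± 0.18, adjusted p = 0.00185), and its catalytic partner *Pold1* had 88.9 and 107 TPM in A_undiff and 158 and 220.2 TPM in A_diff, not called.

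**Figure D5:**
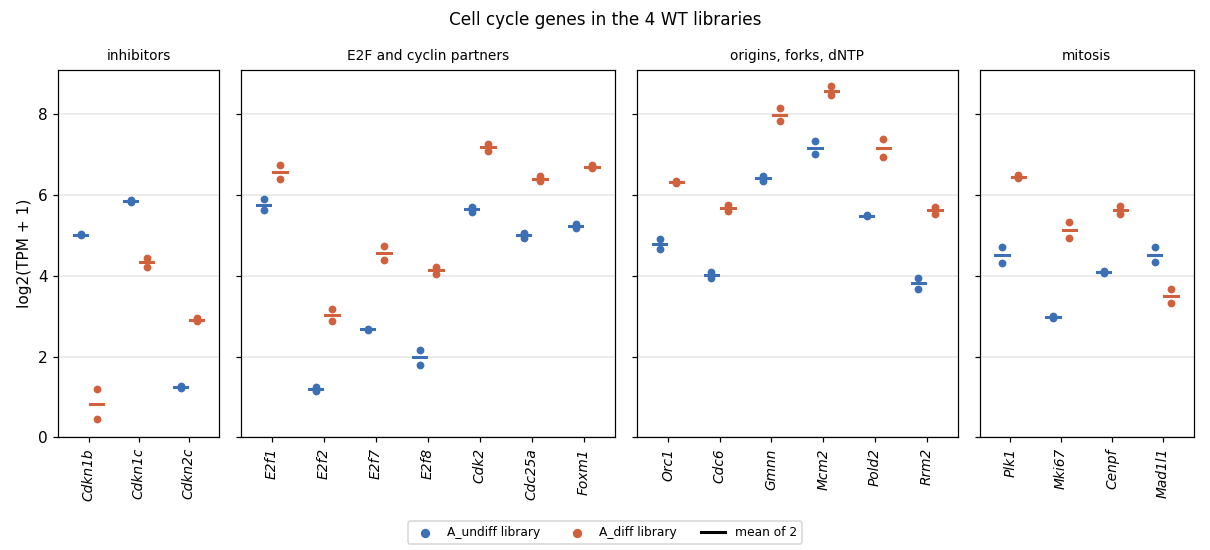
Log2(TPM + 1) (y axis) of CDK inhibitors, E2F and cyclin partner genes, replication genes and mitotic genes in each library, with 2 points for A_undiff, 2 for A_diff and a bar for the mean of 2. *Cdkn1b* and *Cdkn1c* lie lower in A_diff and the replication genes *Orc1*, *Cdc6*, *Gmnn*, *Mcm2*, *Pold2* and *Rrm2* lie higher, with no overlap between populations.

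Of 58 mitotic genes tested 17 [12 to 18] were higher (29.3%) and 1 [0 to 1] lower, with a median of 0.74 [0.56 to 0.80], and 12 were higher after rescaling. *Mki67*, the proliferation marker Ki-67 (chromosome 7 from 135689784 to 135716361), had 7.02 and 6.73 TPM in A_undiff and 39.2 and 29.5 TPM in A_diff (2.15 ± 0.20, adjusted p = 0.0014), the polo-like kinase *Plk1* 18.8 and 25.3 TPM in A_undiff and 84.1 and 89.2 TPM in A_diff (1.94 ± 0.18, adjusted p = 0.0014), and the kinetochore protein *Cenpf* 15.9 and 16.5 TPM in A_undiff and 52.1 and 45.5 TPM in A_diff (1.53 ± 0.16, adjusted p = 0.00172). Both A_diff libraries lay far above both A_undiff libraries in these 3. *Aurka* (34.2 and 33.4 TPM in A_undiff and 62.05 and 53.3 TPM in A_diff) and *Aurkb* (58.3 and 64.2 TPM in A_undiff and 89.7 and 92.7 TPM in A_diff) had smaller differences and were not called, *Mad2l1* (113 and 82.03 TPM in A_undiff and 86.95 and 78.9 TPM in A_diff) overlapped between populations, and *Mad1l1* was lower at 9.12 and 11.9 against 19.2 and 25.2 TPM, a call that was lost without A_undiff replicate 1 (-1.20), without A_undiff replicate 2 (-0.82) and without A_diff replicate 1 (-0.84).

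Many mitotic promoters carry the cell cycle genes homology region, the letters TTTGAA. Searched on both strands in the same windows, it was found in 34 of 59 promoters of the 52 list members in the sequence table (57.6%) and in 17.9% of all promoters. The promoters of *Mki67*, *Plk1* and *Cenpf*, the mitotic members with the largest increases, are shown with the match in capitals. They are chr7:135716330-135716629 on the minus strand, chr7:122159185-122159484 on the plus strand and chr1:189688037-189688336 on the minus strand, in that order.
Mki67: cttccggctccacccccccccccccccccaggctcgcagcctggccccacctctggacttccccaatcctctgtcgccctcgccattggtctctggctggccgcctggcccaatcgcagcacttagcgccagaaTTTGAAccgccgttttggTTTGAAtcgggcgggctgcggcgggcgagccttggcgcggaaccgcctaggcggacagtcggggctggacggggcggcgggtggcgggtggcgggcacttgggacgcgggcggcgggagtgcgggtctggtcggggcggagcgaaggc
Plk1: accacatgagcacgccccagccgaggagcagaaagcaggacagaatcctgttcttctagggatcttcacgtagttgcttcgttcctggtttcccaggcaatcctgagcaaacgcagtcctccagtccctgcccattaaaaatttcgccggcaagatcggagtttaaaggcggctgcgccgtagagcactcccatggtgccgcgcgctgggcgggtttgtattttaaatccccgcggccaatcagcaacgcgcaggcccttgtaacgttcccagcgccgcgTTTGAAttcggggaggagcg
Cenpf: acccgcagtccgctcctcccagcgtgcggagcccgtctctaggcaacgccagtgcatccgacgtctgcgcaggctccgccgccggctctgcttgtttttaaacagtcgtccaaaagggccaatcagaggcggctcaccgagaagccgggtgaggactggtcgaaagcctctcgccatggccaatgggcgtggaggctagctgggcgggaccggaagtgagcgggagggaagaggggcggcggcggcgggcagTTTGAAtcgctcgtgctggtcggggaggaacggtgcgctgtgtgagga
The first match began at position -116 relative to the start in *Mki67*, which holds 2, and at positions 31 and 3 in *Plk1* and *Cenpf*. As before, this describes the letters of the windows only.

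Among histone variants, linker histones and chaperones, calls went both ways. Both macroH2A genes fell, *Macroh2a2* (chromosome 10 from 61738665 to 61784147) with 62.9 and 68.7 TPM in A_undiff and 7.32 and 8.86 TPM in A_diff (-2.88 ± 0.17, adjusted p = 0.000615) and *Macroh2a1* with 205 and 217 TPM in A_undiff and 72.8 and 79.98 TPM in A_diff (-1.45 ± 0.12, adjusted p = 0.00123). MacroH2A replaces H2A in repressed chromatin. The linker histone *H1f10* (chromosome 6 from 87980421 to 87981637) rose from 25.7 and 29.7 to 125 and 238 TPM (2.60 ± 0.30, adjusted p = 0.00259), and *H1f0* had 25.96 and 27.1 TPM in A_undiff and 47.9 and 48.8 TPM in A_diff, not called. *Chaf1a*, the large subunit of the chromatin assembly factor, rose from 18.2 and 23.8 to 54.5 and 46.1 TPM, although 52.5% of its exonic bases overlap an opposite-strand gene, and its partner *Chaf1b* had 37.7 and 45.4 TPM in A_undiff and 35.3 and 35.3 TPM in A_diff. Of 25 genes tested 5 [3 to 7] were higher and 2 lower, with a median of 0.45 [0.11 to 0.47], and there were 3 higher after rescaling and 3 higher without either A_undiff library.

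Of the Polycomb genes, which encode the writers of H2AK119ub (PRC1) and H3K27me3 (PRC2), some were called, while the core enzymes were not. The calls include *Rbbp4*, higher in the PRC2 list. For PRC1, the corepressor *Bcor* fell from 20.4 and 25.7 to 5.31 and 5.66 TPM (-1.88 ± 0.20, adjusted p = 0.00194) and *Pcgf6* from 31.4 and 29.04 to 7.33 and 9.78 TPM (-1.72 ± 0.20, adjusted p = 0.00232), each a mark of a variant complex. *Yaf2* rose from 12.4 and 13.8 to 32.5 and 36.8 TPM (1.34 ± 0.17, adjusted p = 0.0028). The ligase *Rnf2* had 59.8 and 52.8 TPM in A_undiff and 77.5 and 53.8 TPM in A_diff, its partner *Bmi1* 104 and 91.5 TPM in A_undiff and 145 and 88.3 TPM in A_diff, *Rybp*, the paralog of *Yaf2*, 54.2 and 43.7 TPM in A_undiff and 91.6 and 101 TPM in A_diff, and *Cbx2* 87.6 and 109 TPM in A_undiff and 119 and 144 TPM in A_diff, none called. For PRC2, *Epop* rose from 7.8 and 10.6 to 25.2 and 39.4 TPM (1.69 ± 0.26, adjusted p = 0.00543), and *Eed* (132 and 114 TPM in A_undiff and 174 and 141 TPM in A_diff), *Suz12* (26.2 and 19.2 TPM in A_undiff and 48.6 and 37.97 TPM in A_diff) and the H3K27 methyltransferase *Ezh1* (60.05 and 65.3 TPM in A_undiff and 44.9 and 39.1 TPM in A_diff) were not called. *Ezh2* had 17.9 and 16.4 TPM in A_undiff and 29.4 and 24.99 TPM in A_diff. The H3K27 demethylase *Kdm6b* rose from 18.5 and 24.8 to 48.7 and 62.4 TPM (1.32 ± 0.21, adjusted p = 0.0054). In the PRC1 list 4 [2 to 6] of 27 were higher and 3 [2 to 3] lower (a median of 0.33 [0.16 to 0.41]), with 2 higher after rescaling, and in the PRC2 list 3 [2 to 5] of 14 were higher and 1 [0 to 2] lower (a median of 0.56 [0.39 to 0.63]), with 2 of each after rescaling, 5 higher without A_diff replicate 2 and none lower when either of the A_undiff libraries was left out.

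Some genes of DNA methylation and some of demethylation rose. *Uhrf1*, which brings the maintenance enzyme to replicated DNA (chromosome 17 from 56303321 to 56323486), had 76.4 and 98.5 TPM in A_undiff and 231 and 239 TPM in A_diff (1.43 ± 0.15, adjusted p = 0.00194), and *Dnmt1*, that enzyme, 106 and 114 TPM in A_undiff and 242 and 247 TPM in A_diff, a call that was lost after rescaling. *Dnmt3b* (chromosome 2 from 153649450 to 153687730) had 52.5 and 58.7 TPM in A_undiff and 151 and 163 TPM in A_diff (1.48 ± 0.13, adjusted p = 0.00129) while *Dnmt3a* had 119.5 and 140.4 TPM in A_undiff and 97.96 and 114 TPM in A_diff. Their cofactor *Dnmt3l* fell from 6.57 and 10.7 to 1.96 and 1.42 TPM and kept its call in 3 of the 4 fits that left out a library, with a log2 fold change of -1.5 without A_undiff replicate 2. On the demethylation side *Gadd45b*, a stress-induced gene linked to DNA repair, rose from 9.31 and 9.53 to 30.8 and 49.3 TPM (1.94 ± 0.24, adjusted p = 0.00287). The oxidase *Tet3* (5.67 and 7.56 TPM in A_undiff and 14.8 and 18.8 TPM in A_diff) and the glycosylase *Tdg* (16.2 and 15.9 TPM in A_undiff and 38.9 and 32.1 TPM in A_diff) were called higher as well. The call of *Tet3* was lost without A_undiff replicate 1 (1.04), and that of *Tdg* without A_diff replicate 1 (0.96) and after rescaling (0.92). Of 19 genes tested 7 [5 to 8] were higher and 2 [1 to 2] lower, with a median of 0.66 [0.50 to 0.70].

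Among enzymes of other histone marks, *Ehmt1*, the partner of G9a, rose from 23.2 and 26.8 to 75.1 and 81.2 TPM (1.61 ± 0.15, adjusted p = 0.0014) while G9a itself, *Ehmt2*, had 309 and 429 TPM in A_undiff and 324 and 446 TPM in A_diff. *Kdm3a*, an H3K9 demethylase, fell from 77.9 and 71.5 to 24.8 and 23.1 TPM (-1.60 ± 0.14, adjusted p = 0.00129) and its paralog *Kdm3b* had 33.9 and 39.7 TPM in A_undiff and 42.7 and 40.2 TPM in A_diff. *Kmt5a*, the H4K20 methyltransferase of dividing cells, rose from 22.2 and 19.8 to 54.8 and 47.5 TPM (1.24 ± 0.16, adjusted p = 0.00301). In that list 6 [4 to 7] of 40 were higher and 3 [1 to 4] lower, with a median of 0.13 [-0.04 to 0.16] that became -0.04 after rescaling, and 1 was lower without A_undiff replicate 2. Among deacetylases and remodellers, *Hdac6* rose from 143 and 165 to 368 and 395 TPM (1.3 ± 0.13, adjusted p = 0.00154) and the BAF subunit *Smarcc2* from 8.78 and 10.4 to 28.2 and 36.4 TPM (1.64 ± 0.20, adjusted p = 0.00265), next to *Smarcc1* with 105 and 107 TPM in A_undiff and 202 and 184 TPM in A_diff and *Hdac1* with 110.04 and 108 TPM in A_undiff and 213 and 179 TPM in A_diff, neither called. Of 43 tested 2 [2 to 3] were higher and 4 [0 to 5] lower, with a median of 0.11 [-0.03 to 0.29] that became -0.03 after rescaling, and the lower ones were 2 without A_undiff replicate 1 and none without A_undiff replicate 2.

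Of 44 germ cell RNA-binding and translational regulators tested 12 [9 to 12] were higher and 7 [7 to 8] lower, with a median of 0.37 [0.20 to 0.40]. After rescaling the counts were 9 and 8 and the median 0.20. The NANOS family split, with *Nanos2* at 10.8 and 11.7 TPM in A_undiff and 0 and 0.1 TPM in A_diff (-3.54 ± 0.25, adjusted p = 0.000866) and *Nanos1* at 13.4 and 11.6 TPM in A_undiff and 33.8 and 40.1 TPM in A_diff (1.49 ± 0.18, adjusted p = 0.00255), so that *Nanos1* rose where *Nanos2* and *Nanos3* fell. Exons of *Nanos2* overlap an opposite-strand gene for 49.01% of their bases. The CPEB translational regulator *Cpeb2* rose from 2.66 and 1.25 to 8.81 and 12.9 TPM (2.02 ± 0.33, adjusted p = 0.00596) and the neuronal-type HuC gene *Elavl3* from 0.21 and 0.17 to 3.85 and 6.89 TPM, next to *Elavl1* at 94.97 and 91.2 TPM in A_undiff and 106 and 114 TPM in A_diff. *Zfp36* and *Zfp36l1*, which speed the decay of AU-rich messages, fell, *Zfp36* from 20.8 and 23.4 to 5.57 and 4.02 and *Zfp36l1* from 61.2 and 62.5 to 17.9 and 25.8 TPM, while *Zfp36l2* had 37.8 and 42.7 TPM in A_undiff and 53.7 and 71.5 TPM in A_diff. *Msi2* fell from 160.1 and 156 to 73.5 and 51.6 TPM (-1.34 ± 0.19, adjusted p = 0.00377). *Dazl* (371 and 282 TPM in A_undiff and 513 and 485 TPM in A_diff) and *Ddx4* (208 and 183 TPM in A_undiff and 216 and 171 TPM in A_diff), which mark germ cells of both kinds, were not called.

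Genes of the piRNA pathway, which silences transposons, were lower for several nuclear factors. *Spocd1* (chromosome 4 from 129929249 to 129957115) had 39.7 and 45 TPM in A_undiff and 3.98 and 5.44 TPM in A_diff (-2.93 ± 0.20, adjusted p = 0.000866), *Piwil4*, the nuclear PIWI protein, 22.6 and 25.1 TPM in A_undiff and 6.77 and 7.65 TPM in A_diff (-1.60 ± 0.18, adjusted p = 0.00227), and *Morc1* 135 and 123 TPM in A_undiff and 51.5 and 41.96 TPM in A_diff (-1.45 ± 0.15, adjusted p = 0.00188). *Tdrd5* and *Gtsf1* fell as well, *Tdrd5* from 85.2 and 88.7 to 33.5 and 34.3 and *Gtsf1* from 219 and 221 to 104 and 88.5 TPM. The cytoplasmic partner *Piwil2* had 325 and 368 TPM in A_undiff and 369 and 394 TPM in A_diff, *Mov10l1* 169 and 192 TPM in A_undiff and 171 and 177 TPM in A_diff and *Tex19.1* 359 and 373 TPM in A_undiff and 349 and 360.3 TPM in A_diff, none called. Of 31 tested 6 [5 to 6] were lower and 1 [0 to 1] higher, with a median of -0.15 [-0.33 to -0.12].

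Splicing regulators held a pair of paralogs that moved in opposite directions. *Mbnl2* fell from 15.7 and 21.8 to 1.31 and 2.78 TPM (-2.72 ± 0.31, adjusted p = 0.00228) and *Mbnl3* (chromosome X from 51117269 to 51206532) rose from 7.02 and 6.29 to 32.6 and 26.4 TPM (1.99 ± 0.19, adjusted p = 0.00151). *Ptbp3* (chromosome 4 from 59471868 to 59549364) fell from 124 and 124 to 33.5 and 35.7 TPM (-1.81 ± 0.13, adjusted p = 0.000866), next to *Ptbp1* at 240.5 and 265 TPM in A_undiff and 334 and 362 TPM in A_diff and *Ptbp2* at 39.2 and 36.2 TPM in A_undiff and 69.4 and 75.6 TPM in A_diff, neither called. In all 2 [2 to 3] of 44 tested were higher and 3 [2 to 3] lower, 4.55% and 6.82%, with a median of 0.46 [0.30 to 0.56]. Among m6A genes the eraser *Alkbh5* rose from 60.5 and 66.3 to 146 and 154 TPM (1.23 ± 0.13, adjusted p = 0.00177), while *Fto* had 66.8 and 70.95 TPM in A_undiff and 61.7 and 60.2 TPM in A_diff and the writer *Mettl3* 61.1 and 69.1 TPM in A_undiff and 98.3 and 62.2 TPM in A_diff. Of 16 m6A genes 2 [1 to 3] were higher and none lower, with a median of 0.38 [0.21 to 0.44], and 1 was higher when A_undiff replicate 1, A_undiff replicate 2 or A_diff replicate 1 was left out. In small RNA processing *Dicer1* (171 and 171 TPM in A_undiff and 170.3 and 156 TPM in A_diff) and *Drosha* (139.6 and 154 TPM in A_undiff and 193 and 189 TPM in A_diff) were not called, and 2 [1 to 2] of 16 were higher, with a median of 0.30 [0.13 to 0.43], 1 of them after rescaling and 1 without A_undiff replicate 2.

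Cytosolic ribosomal proteins took 18.5 and 18.9% of the TPM in the A_undiff libraries and 12.4 and 12.8% in A_diff. Of 84 genes 10 [9 to 25] were lower and 1 higher, 77 had a negative fold change, and the median was -0.60 [-0.77 to -0.57]. After rescaling 25 were lower. *Rps4x* (chromosome X from 102184941 to 102189394) had the largest fall of the list, from 462 and 442 to 62.3 and 50.98 TPM (-2.98 ± 0.14, adjusted p = 0.000244), and its copy *Rps4l* had 489 and 549 TPM in A_undiff and 480.3 and 676 TPM in A_diff. *Rpl22l1* went from 609.6 and 447 to 127 and 98.6 TPM (-2.21 ± 0.20, adjusted p = 0.00127) and *Rps27l* rose from 212 and 178 to 527 and 463 TPM (1.34 ± 0.14, adjusted p = 0.00179). Ribosomal protein genes have many near-identical processed copies in the genome, so reads can be hard to assign and single values here are uncertain. Of 63 ribosome biogenesis genes tested 1 [0 to 1] was higher and 2 [0 to 2] lower, with a median of 0.08 [-0.09 to 0.13] that became -0.09 after rescaling.

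Of the transcription factors of spermatogonia, more were lower than higher, with 16 [12 to 18] of 38 lower and 5 [4 to 7] higher (a median of -0.88 [-1.15 to -0.61]). *Glis3* (chromosome 19 from 28258851 to 28680077) had 50.02 and 64.2 TPM in A_undiff and 2.79 and 4.17 TPM in A_diff (-3.70 ± 0.23, adjusted p = 0.000642) and *Foxc2* (chromosome 8 from 121116171 to 121118895) 24.5 and 22.3 TPM in A_undiff and 0.86 and 1.72 TPM in A_diff (-3.44 ± 0.26, adjusted p = 0.000951). *Sall1* fell from 22.2 and 29.96 to 5.2 and 7.05 TPM (-1.92 ± 0.24, adjusted p = 0.00265) and *Tbx3* from 9.37 and 10.7 to 1.93 and 2.57 TPM, while *Sall4* had 135 and 171 TPM in A_undiff and 99.7 and 124 TPM in A_diff and *Sox3* 129 and 198 TPM in A_undiff and 95.2 and 167 TPM in A_diff. Upwards went *Sox12*, from 27.3 and 32.9 to 89.7 and 126 TPM (1.79 ± 0.20, adjusted p = 0.00215), and the X-linked homeobox gene *Rhox13*, from 29.4 and 22.2 to 91.9 and 98.2 TPM (1.85 ± 0.17, adjusted p = 0.0014), in contrast to *Rhox10*, which fell from 74.6 and 66.04 to 30.6 and 27.6 TPM. Of the genes just named, *Foxc2*, *Sall4*, *Sox3* and *Rhox13* are also in a marker list of undifferentiated or differentiating cells, and of the 19 tested genes that are in neither, 7 were lower and 1 higher.

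Meiotic genes were mixed, with 8 [4 to 9] of 43 higher and 4 [1 to 4] lower (a median of 0.37 [0.20 to 0.52]), and 4 higher and 1 lower without A_undiff replicate 1. The meiotic cohesin *Rec8* rose from 9.02 and 10.02 to 25.9 and 29.03 TPM (1.44 ± 0.18, adjusted p = 0.00265) and *Mei1* from 5.56 and 6.58 to 26.4 and 27.5 TPM (1.99 ± 0.18, adjusted p = 0.0014). *Rnf212*, a crossover factor, fell from 24.1 and 31.5 to 5.82 and 9.2 TPM (-1.78 ± 0.26, adjusted p = 0.00443). *Sycp3* (48.9 and 34.2 TPM in A_undiff and 59.9 and 47.01 TPM in A_diff), an axis protein, overlapped between the populations, and *Syce3* (162 and 149 TPM in A_undiff and 133 and 151 TPM in A_diff) did as well.

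Some other genes given above as not called passed the threshold in other fits. Called higher without A_diff replicate 1 were *Rxrb*, *Mtor*, *Akt1*, *Tsc2*, *Dlk1*, *Pold1* and *Rybp*, and the first 4 of these also without A_undiff replicate 2. *Rybp* was called higher without A_undiff replicate 1, *Suz12* without A_undiff replicate 1 or A_diff replicate 2, and *Mtor* and *Notch1* at a pseudocount of 0.1.

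By position and kind, calls were spread over the genome. On the X chromosome 12.8% of 627 genes tested were higher and 12% lower, with a median of -0.04, and on the autosomes the higher share ran from 7.97% to 13.9% and the lower share from 7.58% to 12.6%. None of the 15 mitochondrial genes tested was called. Of 440 lincRNA genes tested 18.6% were lower and 9.09% higher, whereas of 393 antisense RNA genes 5.34% were lower and 17.3% higher. Among the genes named above, exons overlap an opposite-strand gene for over 20% of their bases, besides those already said, in *Zfp36l1* (55.9%), *Sycp3* (52.2%), *Rarb* (38.4%), *Jam3* (36.2%), *Tapbp* (24.9%), *Ctsl* (26.8%), *Kdm3b* (24.6%), *Spry1* (24.4%), *Ccnd1* (23.4%), *Dusp5* (22.1%) and *Ptbp1* (20.7%). For *Cdk4*, *Mettl3*, *Ly6g6e*, *H1f10*, *Pdha1*, *Ppp1r1b*, *Ctnnb1*, *Fgfr3*, *Tspan4*, *Gpi1*, *E2f8*, *Orc1*, *Macroh2a2* and *Cd9* the share was 10.7% to 19.7%. Exons shared with another gene on the same strand made up 40.9% of *Ifitm2* and 15.3% of *Pkm*. Antisense genes share their positions with genes on the other strand, and whether RSEM was run with strand is not given in the sources used here.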

How the data were processed

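RNA of WT A_undiff and A_diff was read as stranded poly(A) mRNA libraries in paired 100-base reads, mapped to GRCm38. The TPM values were made and deposited by the authors, with RSEM (1.3.3) per the study's methods, and the submitters' processing notes also name Trim Galore 0.6.6, HISAT2 2.2.1, SAMtools 1.9, HTSeq 1.6.0 and DESeq2 1.28.1. The RSEM annotation and strand setting are not given in the sources used here. TPM keep no depth, so the depth per library is unknown and no count test was run. Each library is a separate biological replicate of pooled cells.

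The filter (at least 1 TPM in 2 or more of the 4 libraries) left the genes that were tested on log2(TPM + 1), a scale that understates changes of low genes, in limma 3.58.1 (R 4.3.3) with trend and robust moderation over both populations and without a replicate term. Calls needed a Benjamini-Hochberg adjusted p under 0.05 together with a log2 fold change larger than 1 in size, and the fit was tested on simulated data. Per list, up to 3 called members with the largest change in each direction were eligible for naming, with a mean of at least 5 TPM in at least 1 population. Overall the 10 largest protein-coding changes in each direction with at least 20 TPM were eligible too. Paralogs and partners of such genes were added whatever they did, and a few were picked after their values were seen. The lists and members were chosen with earlier results of these data known. Alternatives were a pseudocount of 0.1, other filters, median-of-ratios scaling, a replicate block, plain moderation and leaving out each library. Exon overlaps came from GENCODE (vM21) and promoters from RefSeq for GRCm38.p6, the build of the table's coordinates, and the deposited columns of the other libraries were not used. A few genes are not reported here.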

Additional observations from a re-analysis of the deposited data

How the results depend on the processing

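On the values as deposited 1724 genes were higher and 1430 lower in A_diff. A pseudocount of 0.1 gave 1809 and 1482, no filter 1402 and 1190, plain moderation 1631 and 1388, median-of-ratios scaling 1166 and 1750, and a mean of at least 5 TPM, which tests fewer genes, 1235 and 869. Leaving out each library gave 972 to 1734 higher and 818 to 1508 lower, the lowest counts without A_undiff replicate 1 (972 and 818) and without A_undiff replicate 2 (1237 and 820); the cause was not tested. In all 4 of these fits 757 genes kept a higher and 633 a lower call. With the replicate number as a replicate block the counts were 1766 and 1469. The deviations of same-numbered libraries had a correlation of 0.158 over genes, and with only 2 pairs and no label that ties them the libraries share only a number. Of the replication genes 17 were called higher, and 11 under median-of-ratios scaling; the cause was not tested. Of 204 genes eligible for naming, none changed direction, and calls were lost for 13 under that scaling, 4 without a filter, 2 under the block, and 7 to 34 when a library was left out. At a mean of at least 5 TPM over the libraries, 184 of these genes gave the same result, and the rest were not tested. With 2 libraries a population, the standard errors of the log2 fold changes had a median of 0.22, which limits what small changes can be called.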
